A study of Mus musculus with 24 samples.

Results

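The genes described are 10 of the 25385 measured by RNA-seq in mesenchymal stem cells (MSC) derived from mouse marrow, cultured stromal cells with the capacity to become osteoblasts or adipocytes. They were chosen by name as core genes of MHC class I antigen presentation rather than by a cut on their values, with earlier results of these data known: the heavy chains H2-K1 and H2-D1, the light chain B2m, the transporter genes Tap1 and Tap2, the loading factor Tapbp, the immunoproteasome subunits Psmb8, Psmb9 and Psmb10, and the transactivator Nlrc5. The 24 libraries form 8 groups of 3: cells at day 0 without differentiation medium, osteogenic medium (β-glycerophosphate and ascorbic acid) for 7 or 15 days, and 7 days of adipogenic medium, which holds dexamethasone, insulin and indomethacin, each with ethanol vehicle or with 100 nM 1,25(OH)2D3 for the last 24 hours. 1,25(OH)2D3, called VD3 here, is the hormonal form of vitamin D. All groups came from cryopreserved MSC of limited passage from 1 source, and mouse strain, age and genotype were not given in the sources used here. Because adipogenic medium contains dexamethasone, a synthetic glucocorticoid, and the other media do not, the medium and the cell state cannot be told apart.

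MHC class I molecules carry peptides from the cell's own proteins to the surface, where CD8 T cells read them. Proteasomes cut the proteins, and the inducible catalytic subunits encoded by Psmb8, Psmb9 and Psmb10 replace the constitutive Psmb5, Psmb6 and Psmb7 to form the immunoproteasome. Tap1 and Tap2 pump the peptides into the endoplasmic reticulum, Tapbp (tapasin) bridges the pump to empty class I molecules, and each molecule is a heavy chain held with B2m. Interferon is known to raise these genes together, and the transactivator Nlrc5 some of them, which is why they are commonly treated as 1 set.

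The promoters of 5 members are shown because these genes moved in opposite directions in the comparison of adipogenic with osteogenic cells: H2-K1, H2-D1 and B2m were higher, Tap1 and Psmb8 lower. Of the 10 members, 8 had an entry in the RefSeq promoter table (build GRCm38.p6). Each stretch holds the 250 bases before the gene's start, 5′ to 3′ on the gene's own strand: H2-K1 at chr17:34000348-34000597 (minus strand), H2-D1 at chr17:35262844-35263093 (plus), B2m at chr2:122147437-122147686 (plus), Tap1 at chr17:34187306-34187555 (plus) and Psmb8 at chr17:34197945-34198194 (plus). Capitals mark matches to the interferon-stimulated response element (GAAA, any 2 bases, GAAA), to the interferon-γ-activated site TTCNNNGAA, or to an NF-kappaB consensus.
H2-K1: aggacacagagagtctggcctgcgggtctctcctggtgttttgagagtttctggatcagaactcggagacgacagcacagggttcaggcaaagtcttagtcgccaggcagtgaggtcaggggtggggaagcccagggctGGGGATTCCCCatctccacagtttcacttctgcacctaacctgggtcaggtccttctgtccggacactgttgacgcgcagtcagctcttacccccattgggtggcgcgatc
H2-D1: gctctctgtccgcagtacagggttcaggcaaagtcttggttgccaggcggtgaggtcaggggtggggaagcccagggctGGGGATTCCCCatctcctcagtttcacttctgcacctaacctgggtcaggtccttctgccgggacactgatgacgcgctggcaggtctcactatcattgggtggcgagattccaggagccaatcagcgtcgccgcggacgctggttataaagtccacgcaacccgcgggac
B2m: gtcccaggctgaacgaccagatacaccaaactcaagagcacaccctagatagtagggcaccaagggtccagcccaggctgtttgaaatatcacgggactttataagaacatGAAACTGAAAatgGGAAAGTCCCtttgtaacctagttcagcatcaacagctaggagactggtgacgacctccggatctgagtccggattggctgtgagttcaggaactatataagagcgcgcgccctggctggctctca
Tap1: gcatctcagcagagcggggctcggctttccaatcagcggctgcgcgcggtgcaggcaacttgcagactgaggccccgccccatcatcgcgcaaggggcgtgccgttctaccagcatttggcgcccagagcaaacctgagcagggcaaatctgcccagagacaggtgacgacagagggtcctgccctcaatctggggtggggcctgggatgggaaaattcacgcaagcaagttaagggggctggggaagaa
Psmb8: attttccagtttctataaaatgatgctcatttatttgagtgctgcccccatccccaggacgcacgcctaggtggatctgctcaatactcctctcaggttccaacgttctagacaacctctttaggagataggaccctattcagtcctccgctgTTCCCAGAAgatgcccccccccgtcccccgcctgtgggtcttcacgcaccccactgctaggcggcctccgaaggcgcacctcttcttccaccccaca

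In the H2-K1 and H2-D1 stretches the capitals spell GGGGATTCCCC, the 11 letters covered by 2 overlapping NF-kappaB matches, 111 and 171 bases before the start. The string was read from the H2-K1 promoter, so its match there was fixed in advance. Searched on both strands, it occurred in 10 of the 32851 promoters of 300 bases (0.0304%), of which 2 are overlapping entries of H2-K1. The others were those of H2-D1, the class I gene H2-Q6, and Aipl1, Atg16l2, Meig1, Pdzd2, Tfap2d and Zfp385b, which are not class I genes. B2m held an interferon element, GAAACTGAAA, 139 bases before its start, followed by an NF-kappaB match. The interferon element was found in 3.44% of all promoters, and the NF-kappaB consensus in 8.46%. Psmb8 held the interferon-γ-activated site TTCCCAGAA 97 bases before its start, a string form present in 8.30% of promoters. Tap1 shares its promoter with Psmb9: the genes start 226 bases apart, run in opposite directions, and their windows of 300 bases share 275 bases. That window held none of the capitalised motifs, and it held TGACG, found in 20.8% of promoters, 86 bases before the Tap1 start. Among the members with an entry but not shown, Tapbp, also higher in adipogenic than in osteogenic cells, held none of the capitalised motifs. Neither did Psmb9 and Psmb10, which were not called in that comparison. Whether the motifs go with the direction of change was not tested. No member's window held the vitamin D response element (DR3), which occurred in 0.0396% of promoters. These are matches of letters, not measured binding sites. Only the stated letters were searched, so an element spelled otherwise stays in lower case, and a stretch without capitals is not shown to lack one.

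Values are RPKM (reads scaled to transcript length and library depth), given per library in the order of replicates 1, 2 and 3, or as mean ± SD with n = 3. A log2 value is a difference on the log2(RPKM + 1) scale with its standard error, and it understates the change of low genes. A member is called higher or lower where limma's p, adjusted by Benjamini-Hochberg over 21097 genes, was below 0.05. The labels do not say whether replicates were separate cultures, and each p-value rests on the spread among these libraries, which may be technical. In bulk RNA, fewer cells expressing a gene and less RNA per cell cannot be told apart.

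Estimated depth was 7.13 M to 46.6 M reads a library. Adipocyte markers summed to between 27926 and 30146 RPKM in the vehicle libraries of adipogenic day 7 and to at most 204 at day 0, and osteoblast markers to between 661 and 829 in osteogenic vehicle libraries against 64.4 to 73.4 at day 0. Of the marrow stromal markers, 6 of 9 had a mean of at least 5 RPKM at day 0, and Eng and Thy1, commonly used for MSC, had at most 1.55 and 1.06 RPKM as group means. Leukocyte markers (13 genes, none with a group mean of 5 RPKM) summed to between 15.6 and 19.7 RPKM in the day 0 vehicle libraries and to between 1.96 and 7.83 in the other vehicle libraries. The day 0 libraries, except VD3 replicate 2, also had a general low-level signal. The median of 1488 sensory receptor genes was 4.20 ± 0.715 RPKM in day 0 vehicle libraries, 0.456 in day 0 VD3 replicate 2, and between 0.333 and 0.974 as group means elsewhere. Members compared with day 0 are therefore described after the comparisons that do not use it.

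Adipogenic and osteogenic cells at day 7 differed in opposite directions within the class I pathway. In adipogenic cells the genes of the presented molecule itself were higher (H2-K1, H2-D1 and B2m), with Tapbp and Nlrc5. Tap1, Tap2 and Psmb8, which act in peptide supply, were lower, and Psmb9 and Psmb10 were not called. Outside the members the genes of peptide supply were not all lower. Of the 3 constitutive catalytic subunits, 2 were called higher (12.4% of all genes) and 0 lower (25.4%). Of the 10 members, 5 were called higher, against a background of 12.4% of all tested genes, and 3 lower, against 25.4%. The vehicle libraries of the 2 groups did not overlap for these 8 members, though the share of all genes without overlap is not given here. The same 8 were called, in the same directions, when the VD3-treated libraries of both states were compared in place of the vehicle ones, and in each scaling alternative.

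H2-K1, a classical heavy chain, stood at 79.3, 76.9 and 77.8 RPKM in adipogenic libraries and at 29.5, 19.4 and 23.5 in osteogenic ones. Every adipogenic library lay above every osteogenic library. The mean was 3.23-fold higher (log2 1.67 ± 0.14, limma adjusted p = 7.18e-10). H2-D1, the other classical heavy chain, stood at 152, 139 and 142 RPKM against 57.0, 45.3 and 45.6. Its mean was 2.93-fold higher (log2 1.54 ± 0.12, limma adjusted p = 1.85e-10), so both heavy chains moved by similar amounts. Both share sequence with other class I genes: of all 50-base windows of their transcripts, 8.79% (H2-K1) and 14.3% (H2-D1) also occur in other genes' transcripts, and how the authors assigned such reads is not given in the sources used here.

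B2m, the light chain and the most abundant member, stood at 275, 326 and 305 RPKM in adipogenic libraries and at 144, 156 and 160.3 in osteogenic ones. The libraries did not overlap, and the mean was 1.97-fold higher (log2 0.97 ± 0.14, limma adjusted p = 2.91e-06). Its rise was smaller than that of the heavy chains on this scale. Tapbp, which holds empty class I molecules at the peptide pump, stood at 41.8, 43.4 and 38.9 RPKM against 22.6, 23.4 and 25.0. It was 1.75-fold higher (log2 0.78 ± 0.13, limma adjusted p = 2.13e-05).

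Tap1 and Tap2 form the pump that feeds peptides to these molecules, and both went the other way. Tap1 stood at 5.40, 4.42 and 5.92 RPKM in adipogenic libraries and at 14.4, 12.0 and 13.0 in osteogenic ones. The osteogenic mean was 2.50-fold that of adipogenic cells (log2 -1.18 ± 0.15, limma adjusted p = 5.21e-07). Tap2 stood at 10.2, 10.3 and 11.4 RPKM against 20.4, 17.5 and 20.6, also without overlap. Its osteogenic mean was 1.83-fold that of adipogenic cells (log2 -0.81 ± 0.10, limma adjusted p = 3.65e-07).

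Psmb8, the immunoproteasome's chymotrypsin-like subunit, had the largest difference of the 10 members in this comparison. It stood at 3.89, 3.88 and 5.77 RPKM in adipogenic libraries and at 20.2, 17.3 and 21.9 in osteogenic ones. The osteogenic mean was 4.39-fold that of adipogenic cells (log2 -1.93 ± 0.21, limma adjusted p = 4.61e-08). The other inducible subunits were not called. Psmb9 stood at 2.26, 3.09 and 1.75 RPKM against 2.52, 2.84 and 3.06 (log2 -0.19 ± 0.26). Psmb10 stood at 5.61, 5.85 and 5.56 RPKM against 8.74, 3.23 and 8.44 (log2 -0.13 ± 0.23). The spread of Psmb10 came from osteogenic replicate 2. Without that library Psmb10 was called lower in adipogenic cells, with a log2 difference of -0.52.

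Nlrc5, the transactivator of class I genes, was the least abundant member. It stood at 1.88, 2.16 and 2.53 RPKM in adipogenic libraries and at 0.595, 0.641 and 0.723 in osteogenic ones, where the sensory receptor medians were 0.732 ± 0.120 and 0.335 ± 0.110 RPKM. The groups did not overlap (log2 0.95 ± 0.19, limma adjusted p = 0.000206). Its mean RPKM was 3.36-fold higher, in the direction of the heavy chains and opposite to Tap1 and Psmb8.

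**Figure D1:**
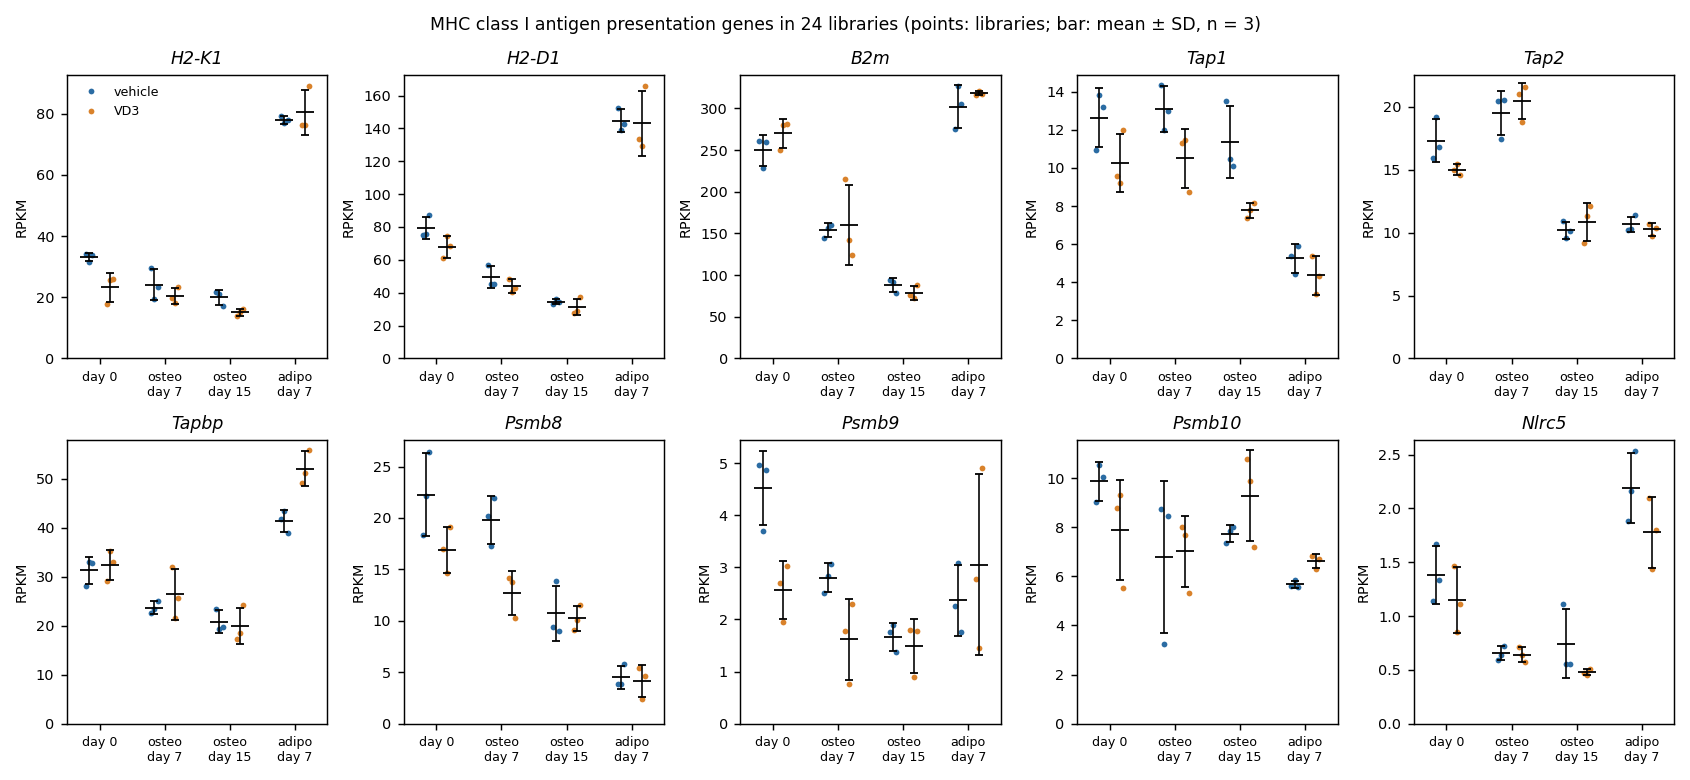
RPKM of each of the 10 genes (y axis, from 0) in the 4 states (x axis), with 1 point per library, blue for vehicle and orange for VD3, and black bars for the mean ± SD of 3 libraries. H2-K1, H2-D1, B2m, Tapbp and Nlrc5 are highest in adipogenic cells, where Tap1 and Psmb8 are lowest.

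Between days 7 and 15 of osteogenic culture, 4 of the 10 members were called lower (6.47% of all genes) and 0 higher (6.87%). They came from different steps of the pathway: H2-D1, B2m, Tap2 and Psmb8. B2m went from 144, 156 and 160.3 RPKM at day 7 to 94.3, 91.1 and 78.1 at day 15, and no library overlapped (log2 -0.80 ± 0.14, limma adjusted p = 0.00022). Tap2 went from 20.4, 17.5 and 20.6 to 10.9, 9.54 and 10.1 RPKM, also without overlap (log2 -0.87 ± 0.10, limma adjusted p = 1.5e-06). Tap1, its partner in the pump, stood at 14.4, 12.0 and 13.0 RPKM at day 7 and at 13.5, 10.5 and 10.1 at day 15. Its log2 difference of -0.20 ± 0.15 was not called, though the Tap1 transcript with the higher mean, taken alone, was called lower with a log2 difference of -0.50.

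Psmb8 went from 20.2, 17.3 and 21.9 RPKM at osteogenic day 7 to 9.41, 13.8 and 9.0 at day 15 (log2 -0.84 ± 0.21, limma adjusted p = 0.00683). In the VD3-treated libraries the same comparison gave a log2 difference of -0.28 that was not called (limma adjusted p = 0.497). H2-D1 went from 57.0, 45.3 and 45.6 to 33.2, 36.4 and 34.1 RPKM (log2 -0.49 ± 0.12, limma adjusted p = 0.00611). That call was lost without osteogenic day 7 replicate 1, the highest of the 6 libraries (limma adjusted p = 0.0522), and with rescaling by median ratio (limma adjusted p = 0.055). H2-K1 (-0.25), Tapbp (-0.18), Psmb9 (-0.51), Psmb10 (0.26) and Nlrc5 (0.062) were not called on the log2 scale. In the VD3-treated libraries H2-K1 (-0.41, limma adjusted p = 0.0449) and Tapbp (-0.38, limma adjusted p = 0.0409) were called lower.

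The comparisons with day 0 share the day 0 vehicle libraries and carry the low-level signal described above. Over all genes, 50.4 to 65.5% were called lower than at day 0, so a lower member is the common outcome here, and a higher one is not. In adipogenic cells 4 members were called higher than at day 0 (background 13.2%) and 5 lower (65.5%). H2-K1 went from 34.1, 31.6 and 33.9 RPKM at day 0 to 79.3, 76.9 and 77.8 in adipogenic cells, and H2-D1 from 75.1, 75.8 and 87.2 to 152, 139 and 142. No adipogenic library overlapped with day 0 for either gene, with log2 differences of 1.21 ± 0.14 and 0.86 ± 0.12 (limma adjusted p = 1.58e-07 and 2.26e-06). Tapbp (log2 0.39 ± 0.13) and Nlrc5 (log2 0.42 ± 0.19) were also called higher. Nlrc5 is less firm: in the day 0 vehicle libraries it stood at 1.14, 1.67 and 1.33 RPKM, below the median sensory receptor gene in each. Leaving out 1 library ended its call in 4 cases, day 0 vehicle replicates 1 and 3 and adipogenic replicates 2 and 3 (limma adjusted p between 0.0783 and 0.146), and so did a pseudocount of 0.1 (limma adjusted p = 0.088). B2m stood at 261, 228 and 260.1 RPKM at day 0, and its log2 difference of 0.27 ± 0.14 was not called (limma adjusted p = 0.0705). B2m was called higher with median-ratio rescaling (log2 0.91, limma adjusted p = 3.73e-05), with quantile normalization (0.38, limma adjusted p = 0.0386) and in a fit on the libraries compared (0.27, limma adjusted p = 0.0171).

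The 5 members lower in adipogenic cells than at day 0 were both pump genes and the 3 inducible proteasome subunits. Psmb8 went from 18.3, 22.1 and 26.4 RPKM to 3.89, 3.88 and 5.77, a 4.94-fold lower mean (log2 -2.08 ± 0.21, limma adjusted p = 1.49e-08). Tap1 went from 10.9, 13.8 and 13.2 RPKM to 5.40, 4.42 and 5.92 (log2 -1.13 ± 0.15, limma adjusted p = 1.06e-06). Both differences exceed the median shift of all genes in this comparison, -0.83 on the log2 scale. Tap2 (-0.65), Psmb9 (-0.72) and Psmb10 (-0.70) fell by less than that median. These 3 were not called lower after rescaling by median ratio, which moved the median of all genes to -0.43, and the Psmb9 call also ended without day 0 vehicle replicate 1 or adipogenic replicate 3 (limma adjusted p = 0.051 and 0.0764). Psmb9 changed sign with quantile normalization (0.27) and background subtraction (0.99).

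In osteogenic cells no member was called higher than at day 0 on the deposited scale. At day 7, 6 were called lower, against 50.4% of all genes (higher 13.6%), and at day 15, 8 were called lower, against 53.4% (higher 17.5%). H2-D1 had 79.4 ± 6.76 RPKM at day 0, 49.3 ± 6.70 at day 7 and 34.6 ± 1.67 at day 15, with log2 differences from day 0 of -0.68 ± 0.12 and -1.17 ± 0.12. B2m had 249.6 ± 18.6, 154 ± 8.34 and 87.9 ± 8.57 RPKM, with log2 differences of -0.70 ± 0.14 and -1.50 ± 0.14. At day 15 both fell by more than the median gene (-0.55). At day 15 the others called lower were Psmb9 (-1.04), Psmb8 (-0.996), H2-K1 (-0.71), Tap2 (-0.71), Tapbp (-0.57) and Nlrc5 (-0.46), while Tap1 (-0.15 ± 0.15) and Psmb10 (-0.31 ± 0.23) were not called. At day 7 the other members called lower were H2-K1 (-0.46), Tapbp (-0.38), Psmb10 (-0.57) and Nlrc5 (-0.52), near the median of all genes (-0.46). Tap1 (0.050 ± 0.15), Tap2 (0.16 ± 0.10), Psmb8 (-0.15 ± 0.21) and Psmb9 (-0.53 ± 0.26) were not called at day 7. With only the transcript of higher mean, Tap1 was called lower at day 15 (-0.454, limma adjusted p = 0.017). Taken the same way, Tapbp was not called at day 7 (-0.37, limma adjusted p = 0.2315) or day 15 (-0.235, limma adjusted p = 0.44).

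Which members were called at osteogenic day 7 depended on the scaling. After rescaling by median ratio, which moved the median of all genes from -0.46 to -0.16, none of the 6 calls held, and 2 members were called higher, Tap1 (0.45) and Tap2 (0.57). Subtracting the sensory receptor median gave 3 higher calls at day 7, Tap1 (0.56), Tap2 (0.52) and Psmb9 (1.42). Quantile normalization gave a higher call for Nlrc5 at day 7 (0.58, limma adjusted p = 0.0187) and at day 15 (0.65, limma adjusted p = 0.00775). In the VD3-treated libraries Tap2 was called higher at day 7 (0.42, limma adjusted p = 0.00318). At day 15, rescaling by median ratio left 5 of the 8 members called lower, without H2-K1, Tapbp and Nlrc5. Single libraries also mattered at day 7. Removing osteogenic replicate 2 ended the calls of Psmb10 and H2-K1, removing day 0 vehicle replicate 2 those of Psmb10 and Nlrc5, removing day 0 vehicle replicate 3 that of Psmb10, and removing osteogenic replicate 1 that of Nlrc5. At day 15 the Nlrc5 call ended on removal of replicate 2 or 3 of either group. Leukocyte marker sums and the sensory receptor medians were also highest at day 0, and their part in these differences was not tested.

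**Figure D2:**
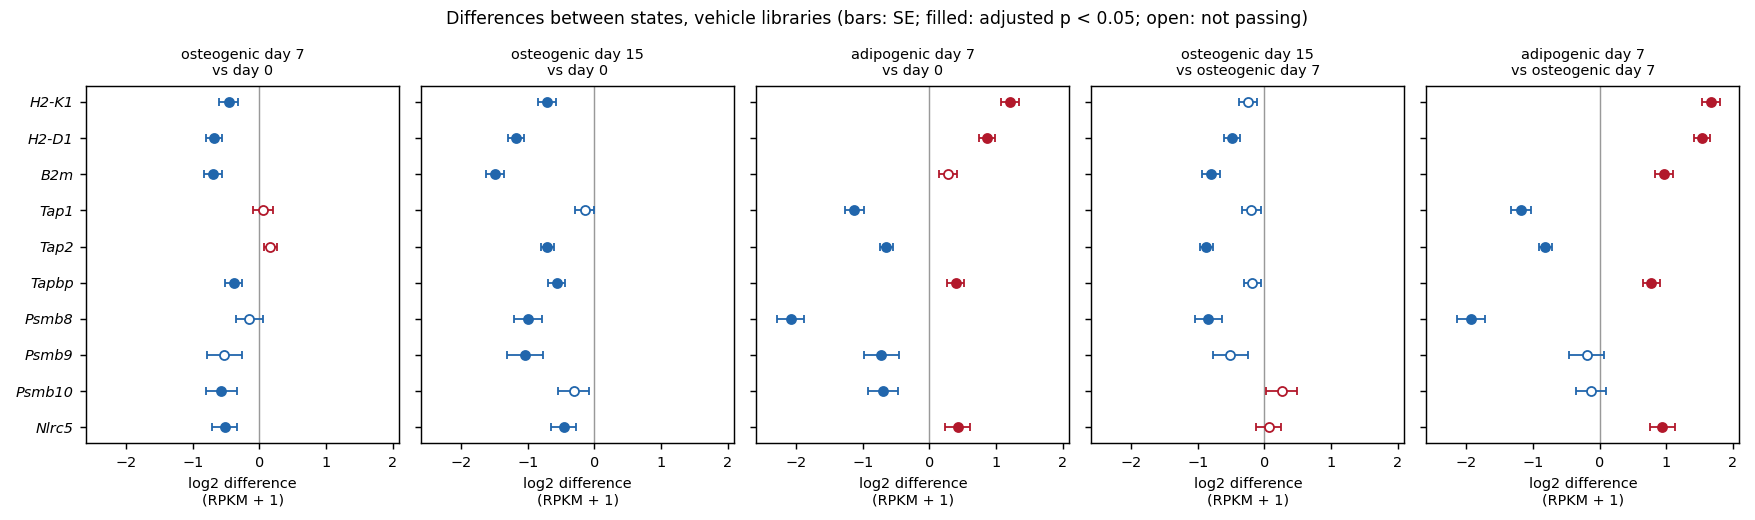
Log2 differences of RPKM + 1 (x axis) of the 10 genes (y axis) in the 5 comparisons between states, vehicle libraries, with standard errors. Filled points have a limma adjusted p below 0.05. In the right-hand panel 5 genes lie above 0 and Tap1, Tap2 and Psmb8 below it, all filled.

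Ratios within a library do not depend on how libraries are scaled against each other, but a low-level signal such as that of day 0 does enter them. They were chosen after the values were seen, 40 comparisons of 8 ratios or shares were made between vehicle groups, and with 3 against 3 libraries the smallest two-sided exact permutation p is 0.1 (0.138 after Benjamini-Hochberg adjustment over the 40), so none can pass 0.05. The summed RPKM of H2-K1 and H2-D1 was 43.0 ± 5.79 times that of Tap1 in adipogenic cells, against 5.58 ± 0.387 in osteogenic cells at day 7, 4.88 ± 0.733 at day 15 and 8.98 ± 1.14 at day 0. The adipogenic libraries (42.9, 48.8 and 37.2) lay above all 9 other vehicle libraries. H2-K1 stood at 17.9 ± 3.84 times Psmb8 in adipogenic cells and at 1.22 ± 0.213 times in osteogenic cells at day 7. Tapbp to Tap1 was 8.04 ± 1.65 in adipogenic cells, against 1.82 ± 0.213 in osteogenic cells at day 7. B2m to the summed heavy chains went the other way, 1.36 ± 0.163 in adipogenic cells and 2.22 ± 0.144 at day 0, without overlap. Tap2 to Tap1, the 2 parts of 1 pump, ranged from 0.907 ± 0.0990 at osteogenic day 15 to 2.05 ± 0.244 in adipogenic cells.

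The inducible subunits can be set against the constitutive subunits they replace. Psmb8 made up 29.3, 31.9 and 37.8% of Psmb8 plus Psmb5 in the day 0 vehicle libraries and 23.9, 24.7 and 30.5% at osteogenic day 7. The share was 10.6, 14.5 and 8.61% at osteogenic day 15 and 4.67, 5.13 and 8.12% in adipogenic cells. Day 0 and osteogenic day 7 overlapped, and both lay above osteogenic day 15 and above adipogenic day 7 in every library (exact permutation p = 0.1 for each). The shares of osteogenic day 15 and adipogenic day 7 did not overlap either, a pair that was not tested. Psmb9 made up 8.37 ± 0.803% of Psmb9 plus Psmb6 at day 0 and 1.75 ± 0.224% at osteogenic day 15. Psmb10 made up 13.4 ± 0.471% of Psmb10 plus Psmb7 at day 0 and 5.00 ± 0.555% in adipogenic cells. The low-level signal of day 0 was not subtracted from the shares, and its part in them was not tested. At day 0, Psmb9 was above the sensory receptor median in 2 of 3 vehicle libraries. After subtraction of that median, Psmb9 was not lower at osteogenic day 15 than at day 0 (log2 0.85, not called). In these shares the constitutive partners moved too: Psmb5 had 45.0 ± 1.90 RPKM at day 0 and 85.5 ± 8.78 at osteogenic day 15. All 3 constitutive genes were called higher than at day 0 in each differentiated state. The share of all genes called higher was 13.6% at osteogenic day 7, 17.5% at osteogenic day 15 and 13.2% in adipogenic cells. From osteogenic day 7 to 15, Psmb5 rose by 0.61, Psmb6 by 0.52 and Psmb7 by 0.45 on the log2 scale while Psmb8 fell by 0.84.

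**Figure D3:**
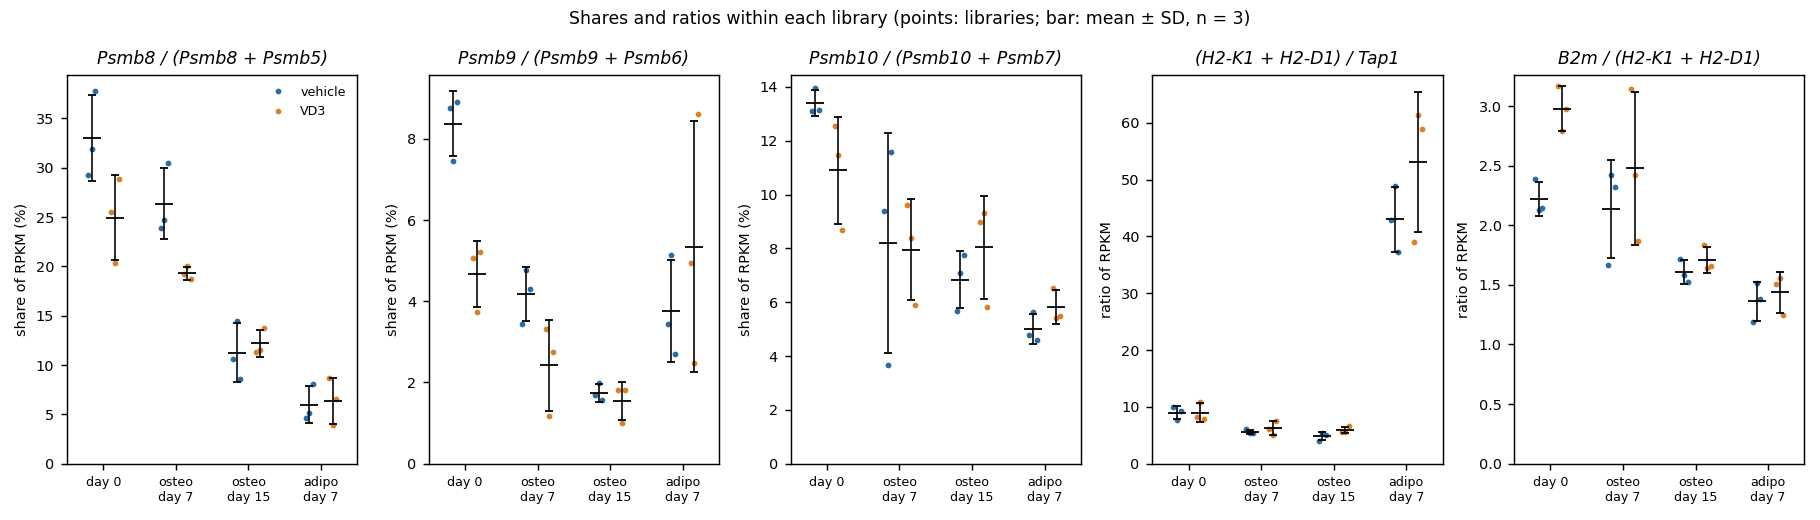
Shares (first 3 panels, percent of summed RPKM) and ratios of RPKM (last 2 panels) in each library, from 0, with the mean ± SD of 3 libraries. The Psmb8 share falls from 33.0 ± 4.34% at day 0 to 5.97 ± 1.87% in adipogenic vehicle libraries. The ratio of heavy chains to Tap1 is highest in the 2 adipogenic groups.

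Across the 24 libraries most members fell into 2 groups with different patterns. The correlations are on log2(RPKM + 1) and are given as a description, since the 24 points share 8 groups, library depth and the day 0 signal. H2-K1 and H2-D1 correlated at 0.952, H2-D1 and Tapbp at 0.942, H2-D1 and B2m at 0.904, and Nlrc5 and H2-D1 at 0.895. In the second group Tap1 and Psmb8 correlated at 0.924 and Tap2 and Psmb8 at 0.719. Between the groups, H2-K1 and Tap1 correlated at -0.695 and H2-K1 and Psmb8 at -0.657. Tap2 correlated at -0.331 with H2-K1 and at 0.0923 with B2m. Psmb9, which shares the divergent promoter with Tap1, correlated with it at 0.0825. Psmb9 is low, with 0.770 to 4.97 RPKM, and was above the sensory receptor median in 21 of 24 libraries.

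**Figure D4:**
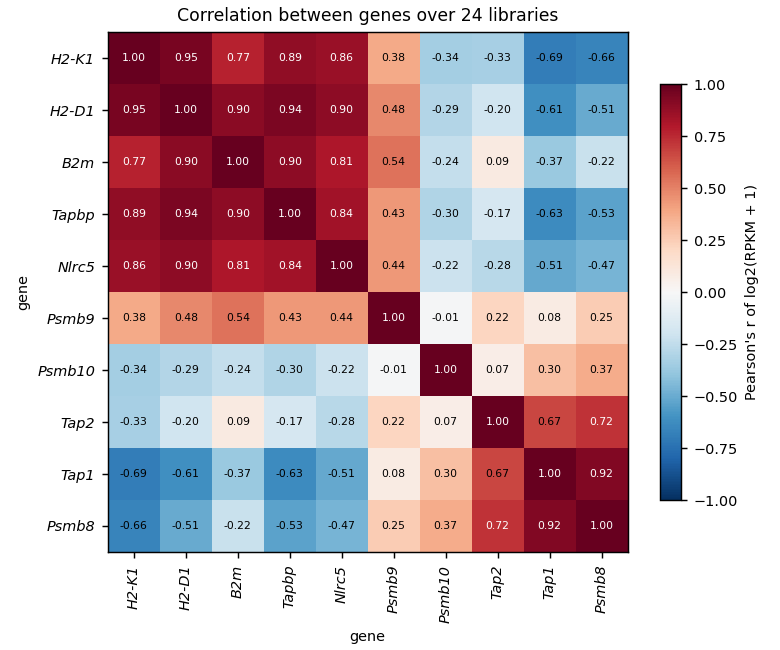
Pearson's r between each pair of the 10 genes over 24 libraries, from -1 (blue) to 1 (red), on log2(RPKM + 1). H2-K1, H2-D1, B2m, Tapbp and Nlrc5 form a red block, Tap1, Tap2 and Psmb8 another, and Psmb9 and Psmb10 belong to neither.

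Other genes are named by their likeness to the mean of all 10 members, which mixes the 2 groups, and to H2-K1 and Psmb8. They were picked for the highest r, so high values follow from the choice. With the mean standardized profile of all 10 members, the most similar of 7003 genes averaging 5 RPKM or more were Lgals3bp (r 0.926), Lgr4 (0.899), C1rl (0.890), Usp25 (0.888) and Rpia (0.888), over 24 libraries. Single profiles were chosen after the values were seen. Most like H2-K1 were Tspan12 (0.978), Insig1 (0.974), Syne2 (0.973), Fgfrl1 (0.970) and Sun2 (0.968). Insig1, a regulator of sterol synthesis, had 628.7 RPKM in adipogenic vehicle libraries and 118.9 at osteogenic day 7. Most like Psmb8 were Slfn9 (0.957), Tpbg (0.948), Lix1l (0.946), Ttc21b (0.943) and Tusc3 (0.941). Slfn9 had 18.6 RPKM at day 0 and 2.26 in adipogenic cells.

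With VD3 for 24 hours few members were called, and the counts were near the shares of all genes called. At day 0, H2-K1 was the 1 member called lower, against 11.0% of all genes. It stood at 34.1, 31.6 and 33.9 RPKM with vehicle and 17.9, 25.7 and 26.1 with VD3, without overlap (log2 -0.52 ± 0.14, limma adjusted p = 0.016). The call did not survive the removal of vehicle replicate 3 or of VD3 replicate 1 (limma adjusted p = 0.0515 and 0.0539), with rescaling by median ratio (0.312, log2 -0.27) and in a fit on the day 0 libraries alone (0.0967). That rescaling moved the median of all genes from -0.27 to -0.10 and the higher share of called genes from 26.5 to 61.6%. The median sensory receptor gene also differed here (4.20 ± 0.715 against 2.76 ± 2.07 RPKM), and its part in the H2-K1 difference was not tested. In VD3 replicate 2, the library without that signal, H2-K1 had 25.7 RPKM, below each vehicle library on the deposited scale. The vehicle libraries carry that signal, so this comparison cannot separate it from VD3. The size factors of the median-ratio rescaling were 0.882 in VD3 replicate 2 and 1.28, 1.32 and 1.28 in the vehicle libraries, and the order depends on them. At an unadjusted limma p below 0.05 there were 2 members at day 0, H2-K1 and Psmb9 (log2 -0.63 ± 0.26).

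No member was called for VD3 at osteogenic day 7 (background 5.26% of genes in either direction), at osteogenic day 15 (0.773%) or in adipogenic cells (2.08%). At an unadjusted limma p below 0.05 there were 2, 2 and 1 members. At osteogenic day 7, Psmb8 stood at 20.2, 17.3 and 21.9 RPKM with vehicle and 14.1, 13.8 and 10.2 with VD3, without overlap (log2 -0.61 ± 0.21, limma adjusted p = 0.103). In adipogenic cells Tapbp stood at 41.8, 43.4 and 38.9 RPKM with vehicle and 49.0, 51.2 and 55.9 with VD3, also without overlap (log2 0.32 ± 0.13, limma adjusted p = 0.38). With only the Tapbp transcript of higher mean that difference was -0.0043. Differences of the VD3 effect between states were called for 0 members in limma: osteogenic day 7 against day 0 (background 2.55%, 0 members at an unadjusted p below 0.05), adipogenic against day 0 (3.47%, 2 members), osteogenic day 15 against day 7 (0.185%, 0 members) and adipogenic against osteogenic day 7 (1.82%, 1 member). The effects in the 4 states are not shown to differ.

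Averaged over the 4 states, a comparison chosen after the values were seen, Tap1 and H2-K1 were called lower with VD3, against 4.95% of genes. Tap1 went from 12.6 ± 1.54 to 10.3 ± 1.53 RPKM at day 0, from 13.1 ± 1.20 to 10.5 ± 1.55 at osteogenic day 7, from 11.4 ± 1.87 to 7.77 ± 0.382 at osteogenic day 15 and from 5.25 ± 0.760 to 4.36 ± 1.02 in adipogenic cells. The mean was lower with VD3 in 4 of 4 states, and the libraries of both osteogenic time points did not overlap (mean log2 -0.32 ± 0.074, limma adjusted p = 0.00424). Taking only the Tap1 transcript with the higher mean ended the call (log2 -0.25, limma adjusted p = 0.0645). H2-K1 had a mean log2 difference of -0.27 ± 0.069 (limma adjusted p = 0.0136), with 0.043 ± 0.14 in adipogenic cells (-0.047 after rescaling by median ratio), and the mean effect was not called after rescaling by median ratio (0.127).

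**Figure D5:**
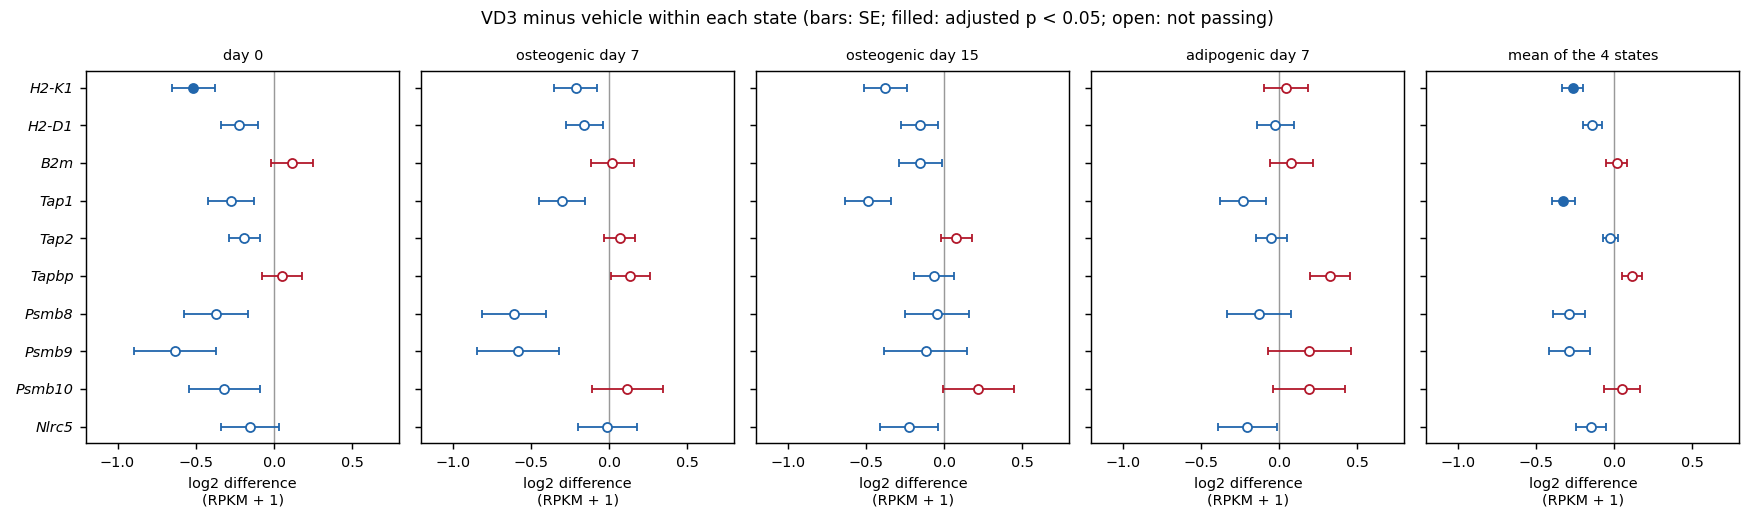
VD3 minus vehicle on the log2(RPKM + 1) scale (x axis) for the 10 genes (y axis) in each state and averaged over the 4 states, with standard errors. Filled points, with a limma adjusted p below 0.05, are H2-K1 at day 0 and H2-K1 and Tap1 in the mean.

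The other genes of the pathway were taken from fixed lists that were chosen with earlier results of these data known. Their counts stand against 12.4% of all genes called higher and 25.4% lower between adipogenic and osteogenic cells at day 7, and 6.87% and 6.47% from osteogenic day 7 to 15. Of 26 other class I and class I-like heavy chain genes, 21 were in the files and 19 tested. Between adipogenic and osteogenic cells at day 7, 7 of the 19 were called higher and 4 lower, with a median log2 difference of 0.32 against 0.02 over all genes. The higher ones were led by Cd1d2 (3.73) and Cd1d1 (3.30), lipid-presenting molecules that differ from each other by little sequence, and H2-Q6 (2.14), which shares sequence with H2-D1. Cd1d1 had 45.4 ± 5.40 RPKM in adipogenic cells and 3.70 ± 0.464 in osteogenic ones. The lower ones were led by Mr1 (-1.89), which presents vitamin B metabolites, H2-M3 (-1.28), which presents formylated peptides, and H2-T23 (-0.83), the mouse Qa-1 molecule. Mr1 had 5.11 ± 0.366 RPKM in adipogenic cells and 21.7 ± 2.56 in osteogenic ones. With VD3, Mr1 was called higher at day 0, from 21.3 ± 1.23 to 44.5 ± 1.88 RPKM (log2 1.03), and in adipogenic cells, where it reached 10.8 ± 2.26 RPKM (log2 0.93), while Cd1d1 (-0.81) and Hfe (-0.73) were called lower at day 0. From osteogenic day 7 to 15, 0 of the 19 were called higher and 2 lower, H2-T23 (-0.77) and Cd1d1 (-0.56).

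Peptide loading and trimming genes (13 tested) were split in adipogenic against osteogenic cells at day 7, with 5 called higher and 5 lower and a median log2 difference of 0.023. The higher ones were led by Hspa5 (1.49), the chaperone BiP, Derl1 (1.41) and Bcap31 (1.34). The lower ones were led by the translocon genes Sec61b (-2.14) and Sec61a1 (-1.09) and by Pdia3 (-0.92), the thiol oxidoreductase that works with tapasin. From osteogenic day 7 to 15, 1 was called higher, Hspa5 (1.06), and 2 lower, Sec61b (-0.74) and the trimming peptidase Erap1 (-0.87). With VD3 at day 0, 4 of the 13 were called lower (background 11.0% of all genes), led by Tapbpl (-0.55), Hspa5 (-0.48) and Calr (-0.47), and 0 higher (3.98%). The median log2 difference of the 13 was -0.19, less negative than the -0.27 over all genes.

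Of 20 tested transcription regulators of class I genes, 2 were called higher (background 12.4% of all genes) and 11 lower (25.4%) in adipogenic than in osteogenic cells at day 7. Irf2, an interferon regulatory factor, was among those higher (0.85). The largest falls were those of Socs3 (-1.31), an inhibitor of cytokine signalling, Nfyb (-0.91) and Rfx5 (-0.90), a subunit of the complex that binds class I and class II promoters. Among 10 interferon ligands, receptors and kinases, 1 was called higher and 4 lower. Ifngr1 was higher (1.42), and the lower ones were led by Ifngr2 (-1.39), the other chain of the interferon-γ receptor, the kinase gene Jak2 (-0.64) and Ifnar1 (-0.46). With VD3 at day 0, 3 were called lower (background 11.0% of all genes) and 3 higher (3.98%). The lower ones were Ifnk (-1.24), an interferon ligand at 7.56 ± 1.67 RPKM with vehicle and 2.93 ± 1.89 with VD3 (sensory receptor medians 4.20 and 2.76), Ifngr1 (-0.85), from 77.6 ± 5.12 to 42.7 ± 3.12 RPKM, and Ifnar1 (-0.25). The higher ones were the kinase genes Jak2 (0.74), Tyk2 (0.64) and Jak1 (0.51).

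Of 21 interferon-responsive genes outside the pathway, 3 were called higher and 11 lower in adipogenic than in osteogenic cells at day 7. The higher ones were Gbp2 (1.37), Gbp3 (1.06) and Iigp1 (0.73), GTPases of cell-autonomous defence, and the lower ones were led by Oasl2 (-1.49), Bst2 (-1.44) and Oas1a (-1.05), antiviral effectors. From osteogenic day 7 to 15, 1 was called higher, Ifit2 (0.59), and 6 lower, led by Iigp1 (-1.34), Ifi44 (-1.02) and Gbp3 (-0.93). Against day 0, where most genes were called lower, 20 of the 21 were called lower at osteogenic day 15 (53.4% of all genes) and 0 higher (17.5%). They were led by Ifi44 (-3.47), and the median of the list was -1.77 against -0.55 over all genes. This was not particular to day 15. At osteogenic day 7, 21 were called lower (50.4% of all genes), with a median of -1.42 against -0.46. In adipogenic cells 20 were called lower (65.5%) and 1 higher (13.2%), with a median of -1.73 against -0.83. The leukocyte markers summed to between 5.17 and 7.83 RPKM in adipogenic vehicle libraries and between 1.96 and 4.63 at osteogenic day 7. MHC class II genes (7 genes, with 1 above a group mean of 5 RPKM) summed to between 5.73 and 8.24 and between 7.78 and 9.13 RPKM. Their part in the class I differences was not tested.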

How the data were processed

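RNA-seq values of 24 libraries were used, 3 in each of 8 groups. Per the labels' protocols, total RNA was depleted of ribosomal RNA and made into directional libraries. Per the submitters' processing notes, TopHat and the build mm9 were used. The authors deposited RPKM, 1 value per transcript; the quantification tool, the annotation and the treatment of reads shared between genes are not given in the sources used here. Of 30795 transcripts under 25410 symbols, 40 with symbols turned into dates were left out. Transcripts were summed by symbol (Tap1 and Tapbp have 2 each, the other members 1), giving 25385 genes.

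Depth was estimated from the steps between whole reads among 150 low values of olfactory receptor genes, of which 72.7 to 85.3% lay within 0.1 of a whole read. On a transcript of 1 kilobase, 3 reads correspond to 0.0643 to 0.421 RPKM, counting error only. Pearson's r within groups was 0.926 to 0.993, and no 2 libraries held identical values (0 pairs). Same-numbered libraries of different groups did not deviate together (r from -0.352 to 0.444, median 0.0036), so replicate numbers were not taken as pairs.

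A gene entered the test if 3 libraries or more reached 1 RPKM (21097 genes, with all 10 members). On the log2(RPKM + 1) scale (pseudocount 1), limma 3.58.1 (R 4.3.3) fitted 1 linear model to the 24 libraries with a term per group, using eBayes with its trend and robust settings. P-values were adjusted by Benjamini-Hochberg over the genes of a comparison, with a threshold of 0.05. There were 5 comparisons between states in vehicle libraries, 4 of VD3 with vehicle and 4 of VD3 effects between states, and 1 added mean VD3 effect. The procedure was tested on simulated data with independent noise and few shifted genes. Those data held neither a low-level signal like that of day 0 nor a shift in most genes, so that case was not tested. Ratios were tested with a two-sided exact permutation test (scipy 1.17.1).

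The members and lists were chosen with earlier results of these data known. All 10 members are named, and of each list up to 3 called genes each way with the largest log2 differences, except 1 gene that is counted in its list but not reported here. Like patterns are the 5 genes of highest Pearson's r. Promoter sequences are from RefSeq (GRCm38.p6), another build than that of the deposited values, and were matched by symbol. Shared windows of 50 bases were counted in GENCODE M21 transcripts. Alternatives were pseudocount 0.1, no filter, a filter at 5 RPKM, median-ratio rescaling, quantile normalization, subtraction of the sensory receptor median, a replicate block, plain empirical Bayes, a fit on the libraries compared, the transcript of highest mean, the VD3-treated libraries alone, and the omission of each library in turn.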

Additional observations from a re-analysis of the deposited data

How the results depend on the processing

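Adipogenic against osteogenic day 7 kept its 8 called members (5 higher, 3 lower) under each alternative except the filter at 5 RPKM (7, since Nlrc5 is not tested) and the omission of single libraries (8 to 9), although median-ratio rescaling moved the higher share of all called genes from 32.9 to 46.1%. Osteogenic day 15 against day 7 gave 3 to 5 called members, none higher, and 3 to 4 with single libraries left out. Against day 0, osteogenic day 7 went from 6 to 2 called members with median-ratio rescaling (both higher), to 3 in VD3-treated libraries (2 lower, and Tap2 higher) and to 2 when day 0 VD3 replicate 2 was the lone day 0 library, and osteogenic day 15 from 8 to 5 with that rescaling and to 5 with that lone library. Adipogenic cells against day 0 went from 9 called members (4 higher, 5 lower) to 6 (3 higher, 3 lower) in VD3-treated libraries, and to 7 (5 higher, 2 lower) with median-ratio rescaling. VD3 at day 0 was called for 1 member, for 0 after median-ratio rescaling and for 0 when only the day 0 libraries were fitted. The mean VD3 effect was called for 2 members, for 1 after median-ratio rescaling, and for 1 when the transcript of highest mean was used. Over all genes, median-ratio rescaling moved the higher share of calls from 21.3 to 41.4% (osteogenic day 7 against day 0), 24.7 to 39.0% (osteogenic day 15), 16.7 to 34.8% (adipogenic), 51.5 to 40.4% (osteogenic day 15 against day 7), 55.3 to 38.8% (VD3, osteogenic day 7) and 68.1 to 82.6% (VD3, osteogenic day 15). For differences of the VD3 effect from day 0 it went from 72.5 to 23.8% (osteogenic day 7) and 70.9 to 29.4% (adipogenic). Quantile normalization gave 59.4, 58.6 and 51.0% for the osteogenic day 7, osteogenic day 15 and adipogenic comparisons with day 0, 43.6% for adipogenic against osteogenic day 7 and 57.7% for VD3 at day 0. With single libraries left out the counts ranged from 4 to 6, 7 to 8 and 7 to 9 against day 0, from 0 to 1 for VD3 at day 0 and from 2 to 3 for the mean VD3 effect.

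Called members that changed sign were the following, as log2 differences. At osteogenic day 7 against day 0, Tapbp was 0.032 with median-ratio rescaling, Nlrc5 was 0.58 with quantile normalization, and with background subtraction Psmb10 was 0.082 and Nlrc5 0.39. At osteogenic day 15 against day 0, Nlrc5 was 0.65 with quantile normalization, and with background subtraction Psmb9 was 0.85 and Nlrc5 0.46. In adipogenic cells against day 0, Psmb9 was 0.27 with quantile normalization, 0.99 with background subtraction, 0.11 in VD3-treated libraries and 0.36 with the lone day 0 library. Psmb9 at osteogenic day 7 against day 0, which was not called, was called higher with background subtraction (1.42). The cause was not tested. Another 26 values changed sign and were called under neither setting. Osteogenic day 7 against day 0 gave Psmb8 0.25 with median-ratio rescaling, Psmb9 0.27 with quantile normalization and Psmb8 0.11 with background subtraction. Osteogenic day 15 against day 0 gave Tap1 0.21 and Psmb10 0.041 with median-ratio rescaling, Tap1 0.35 and Psmb10 0.35 with background subtraction and Psmb10 0.22 with the VD3-treated libraries. Osteogenic day 15 against day 7 gave Tapbp 0.14 with the transcript of highest mean and Nlrc5 -0.15 with the VD3-treated libraries. Adipogenic against osteogenic day 7 gave Psmb10 0.049 with median-ratio rescaling, Psmb9 0.0073 and Psmb10 0.12 with quantile normalization and Psmb9 0.58 with the VD3-treated libraries. VD3 at day 0 gave H2-D1 0.024 and Tap2 0.045 with median-ratio rescaling, Nlrc5 0.28 with quantile normalization and Psmb9 0.070 and Nlrc5 0.16 with background subtraction. VD3 at osteogenic day 7 gave B2m -0.094 and Tap2 -0.042 with median-ratio rescaling. VD3 in adipogenic cells gave H2-K1 -0.047 and B2m -0.013 with median-ratio rescaling, B2m -0.0058 with quantile normalization, Psmb9 -0.0057 with background subtraction and Tapbp -0.0043 with the transcript of highest mean. Of 1057 values under alternatives that leave out no single library, 960 kept direction and side of the threshold, 44 were no longer called, 15 became called and 38 changed sign.

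With 1 library left out, 725 of 780 values kept both, 19 were no longer called, 2 became called and 34, none of them called, changed sign. The ranges of the values that did so were as follows. Osteogenic day 7 against day 0 gave Tap1 -0.044 to 0.11. Osteogenic day 15 against day 7 gave Psmb10 -0.13 to 0.47 and Nlrc5 -0.085 to 0.14. Adipogenic against osteogenic day 7 gave Psmb10 -0.52 to 0.078. VD3 at day 0 gave Tapbp -0.023 to 0.12. VD3 at osteogenic day 7 gave B2m -0.21 to 0.19, Tap2 -0.0050 to 0.13, Tapbp -0.0054 to 0.27, Psmb10 -0.28 to 0.32 and Nlrc5 -0.041 to 0.020. VD3 at osteogenic day 15 gave Tapbp -0.20 to 0.032, Psmb8 -0.15 to 0.13 and Psmb9 -0.21 to 0.069. VD3 in adipogenic cells gave H2-K1 -0.031 to 0.080, H2-D1 -0.13 to 0.042, Psmb8 -0.32 to 0.15 and Psmb9 -0.12 to 0.51. The mean VD3 effect gave B2m -0.043 to 0.056, Tap2 -0.042 to 0.0034 and Psmb10 -0.046 to 0.10.

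With the replicate block, the counts of called members were 8 for adipogenic against osteogenic day 7, 4 for osteogenic day 15 against day 7, and 6 for osteogenic day 7 against day 0, as without it, and it changed no call. At most 0.421 RPKM corresponded to 3 reads on 1 kilobase, below the lowest values of Nlrc5 (0.454) and Psmb9 (0.770). Nlrc5 and Psmb9 were above the median sensory receptor gene in 16 and 21 of 24 libraries.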

Other observations

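Of the 11 core subunits outside the catalytic pairs, 3 were called higher in adipogenic than in osteogenic vehicle libraries at day 7 (12.4% of all genes) and 3 lower (25.4%), in the limma test used throughout. The lower share is near that of all genes. The higher ones were ring subunits of the α type: Psma6 (log2 1.30) with 284.4 ± 32.2 RPKM against 115 ± 17.1, Psma1 (1.07) with 66.8 ± 2.95 against 31.3 ± 3.92, and Psma5 (0.79). Psma2, also of the α type, was called lower (-0.50), as were the β type subunits Psmb1 (-0.73) and Psmb2 (-0.68). From osteogenic day 7 to 15 only Psma7 of the 11 was called, higher by 0.47 on the log2 scale.

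Among 9 genes of proteasome activators and assembly factors, 4 were called higher in adipogenic than in osteogenic cells at day 7 and 2 lower. Psme2 (0.86) and Psme1 (0.66), which encode the interferon-inducible activator PA28αβ, were higher, unlike the immunoproteasome subunit Psmb8. Psme1 had 21.9 ± 0.970 RPKM in adipogenic cells and 13.5 ± 1.65 in osteogenic ones. Psmg2, an assembly chaperone, was lower (-0.83) in adipogenic cells and was called higher with VD3 in them (0.54), from 9.12 ± 0.568 to 13.8 ± 1.87 RPKM.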
